A study of Mus musculus with 8 samples.

Results

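The genes described here are the cyclins and kinases that carry a cell through G1, together with the pocket protein Rb1 and the transcription factor E2f1. The members were Ccnd1, Ccnd2, Ccnd3, Ccne1, Ccne2, Cdk2, Cdk4, Cdk6, Rb1 and E2f1, and every non-control probe whose gene name on the array was one of these symbols was taken. This gave 19 of 41174 probes, for 10 of the 27962 gene names on the array. Of these, 18 probes were tested, among 25661 tested in all, and the remaining Rb1 probe was too dim. Probes were taken by symbol alone, but the members themselves were chosen with earlier results of these data known.

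RNA came from R1 mouse embryonic stem cells, an established line of pluripotent cells from the early mouse embryo, grown on gelatin in medium with serum replacer. In 4 samples the cells were held in LIF (leukaemia inhibitory factor, the cytokine that keeps mouse embryonic stem cells undifferentiated) and had no feeder layer. The other 4 samples grew for 15 passages without LIF but with sodium butyrate at 0.2 mM. Butyrate is a small fatty acid and blocks histone deacetylases. The groups thus differ in LIF as well as in butyrate. No passage number was at hand for the LIF samples, so time in culture may differ too. Each of 4 Agilent arrays with 2 colours, all on 1 slide, carried the butyrate sample (Cy5) and the LIF sample (Cy3) of the same replicate number. Dye and treatment cannot be told apart, because no array had the dyes exchanged. The labels call the samples an independent quadruplicate but name no separate lines or derivations, so p-values reflect only how these samples spread, and that spread may be technical.

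In G1, cyclins D1, D2 and D3 (Ccnd1, Ccnd2, Ccnd3) bind the kinases Cdk4 and Cdk6, and cyclins E1 and E2 (Ccne1, Ccne2) bind Cdk2. Both kinds of complex phosphorylate the Rb protein, which otherwise holds E2F factors such as E2f1 inactive. Released E2F switches on genes for DNA replication, and also the genes of cyclin E and of E2F itself. Mouse embryonic stem cells are known for a very short G1, abundant cyclin E with Cdk2, and little cyclin D, and G1 lengthens as they differentiate.

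The ratio reported for each array is the log2 of butyrate over LIF signal after loess normalization, which sets the ratio of a typical probe near 0 at every brightness. A probe passed where limma's test of the 4 ratios against 0 gave a Benjamini-Hochberg adjusted p under 0.05 over all 25661 probes. Loess left the median ratio of all tested probes at 0.03. When each array was instead centred on its median over all spots, without loess, that median was 0.37. The share of called probes that were higher in butyrate then rose from 55.0% to 91.97%, whereas it was 44.9% in the authors' value table. Median centring raised the ratio of 18 of the 19 member probes, and each member is given with both. A probe higher with loess is therefore likely to pass again, and a small fall is not. Passing with both is thus little support for a rise.

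Of the 18 member probes tested, 16 passed, 7 of them higher in butyrate and 9 lower. Over all probes tested 72.2% passed, 39.7% higher and 32.5% lower, so passing was common on these arrays. The median size of the ratio, without its sign, was 0.59 for the member probes and 0.23 for all probes. A change of at least 2-fold that passed was seen in 2 member probes upward and 1 downward, against 5.71% of all probes in either direction, 4.1% upward and 1.61% downward. The 4 LIF and the 4 butyrate signals did not overlap for 17 of the 18 tested member probes, against 65.3% of all probes. In the same direction with both normalizations 9 member probes passed, 7 higher and 2 lower, where 40.8% of all probes did, 36.1% higher and 4.71% lower. By median centring alone 10 member probes passed, 8 higher and 2 lower, against 60.3% of all probes, 55.4% higher and 4.84% lower. The members called higher with loess, 7 of 18, were thus near the share of all probes.

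**Figure D1:**
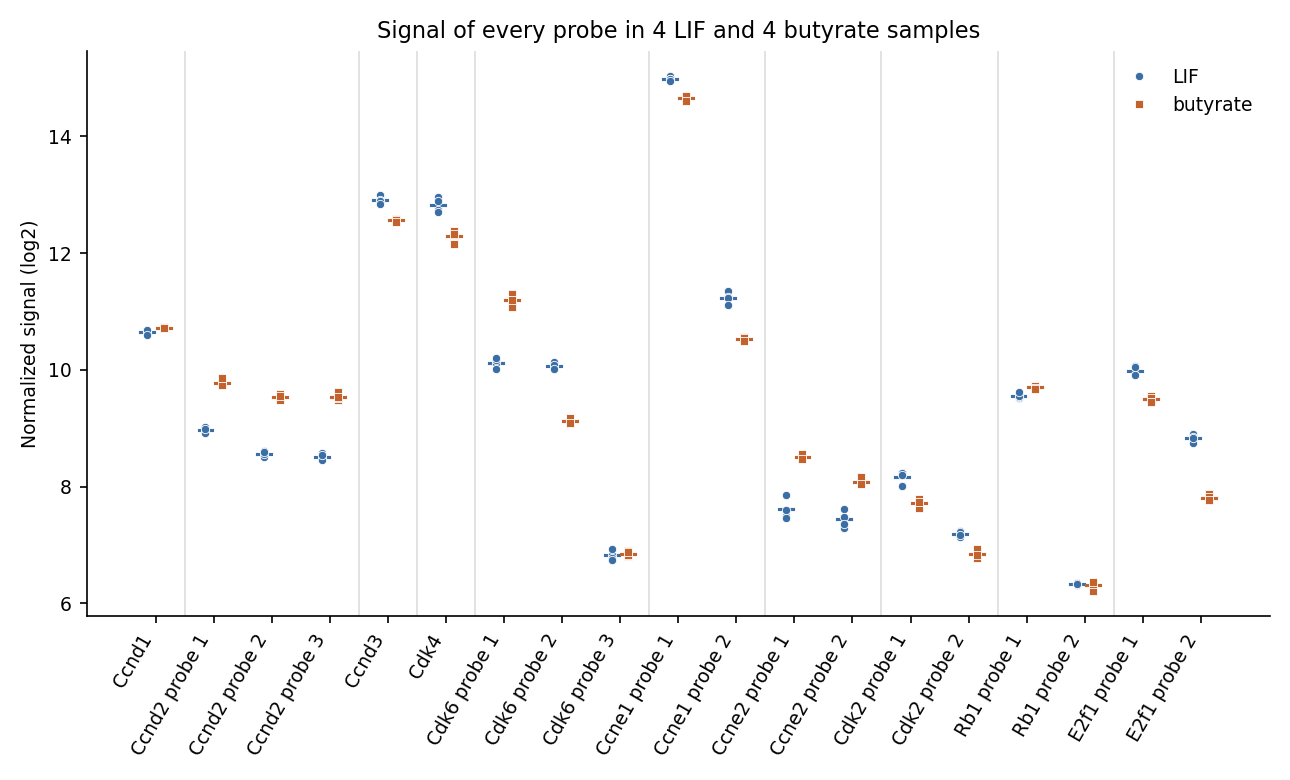
Normalized signal (log2, vertical axis) of each of the 19 member probes in the 4 LIF samples (circles) and the 4 butyrate samples (squares), with a bar at each group's mean; probes are numbered within a gene from the brightest tested. The groups are apart for every Ccnd2 and Ccne2 probe (butyrate higher) and for every Ccnd3, Cdk4, Ccne1, Cdk2 and E2f1 probe (butyrate lower), while the Cdk6 probes go in different directions; heights of different probes are not comparable.

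Among the D cyclins, Ccnd2 rose, Ccnd3 fell with loess and Ccnd1 did not pass. The brightest of 3 Ccnd2 probes, A_52_P53906, read 8.96, 8.92, 9.03 and 8.99 (log2 signal) in the LIF samples and 9.77, 9.76, 9.74 and 9.86 in the butyrate samples. Every butyrate sample lay above every LIF sample by more than the whole range of either group. The ratio was 0.81 ± 0.07 (SD, n = 4 arrays), a 1.75-fold higher level (limma, adjusted p = 5.94e-07). In bulk RNA such as this, a change in the share of cells that express a gene and a change in the RNA of each cell cannot be told apart.

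The other Ccnd2 probes gave ratios of 0.97 ± 0.03 and 1.02 ± 0.08 (A_51_P433228 and A_52_P514391), or 1.96-fold and 2.03-fold. All 3 probes name the same transcript, so they are repeat readings of Ccnd2 and not independent replicates. They rose further with median centring, to between 1.39 and 1.58, and kept their direction and their call under every alternative tried. Ccnd2 lies at chr6:127125162-127152188 in GRCm38.p6.

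Ccnd3 (chr17:47505051-47599689) was read by 1 probe, at 13.00, 12.92, 12.89 and 12.83 in LIF and 12.59, 12.55, 12.57 and 12.53 in butyrate. The butyrate samples were all below the LIF samples. The ratio was −0.35 ± 0.05, a 1.27-fold lower level (limma, adjusted p = 5.20e-05), but with median centring it was 0.20 ± 0.35 and did not pass (adjusted p = 0.248). Ccnd1 (chr7:144929931-144939831), the D cyclin most often driven by mitogens and Wnt signals, read 10.66, 10.65, 10.68 and 10.60 in LIF and 10.74, 10.72, 10.72 and 10.72 in butyrate. These groups did not overlap either, yet the ratio was only 0.08 ± 0.04 and missed the threshold (limma, adjusted p = 0.0848). With median centring Ccnd1 passed at 0.67 ± 0.32, close to the median of 0.63 of probes as bright.

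The change of normalization moves every probe of an array at a given brightness alike, so a difference between probes within an array is less open to it. Ccnd2 exceeded Ccnd1 by 0.73 ± 0.04 in log2 ratio, by 0.67 to 0.77 on each of the 4 arrays, and by 0.71 with median centring. It exceeded Ccnd3 by 1.15 ± 0.09 with loess and 1.18 with median centring. For these and 9 further pairs of member probes, 11 in all and picked after their values were seen, the exact two-sided sign-flip test over 4 arrays cannot give less than 0.125 (0.138 adjusted over the pairs). Both D cyclin pairs stood at that limit.

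Cdk4 (chr10:127063535-127067288), the kinase partner of the D cyclins, was lower in butyrate with loess and level with LIF after median centring. Its probe read 12.96, 12.90, 12.75 and 12.70 in LIF and 12.38, 12.31, 12.16 and 12.33 in butyrate. The groups did not overlap, although LIF replicates 1 and 2 were above replicates 3 and 4. The ratio of −0.53 ± 0.10 corresponds to a 1.45-fold lower level (limma, adjusted p = 1.48e-05), and with median centring it was 0.03 ± 0.34 (adjusted p = 0.887). Array 4 stood apart at −0.37, where the other 3 lay between −0.59 and −0.58.

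The Cdk4 promoter is shown because Cdk4 was the only member with more than 1 E-box, the sequence CACGTG that Myc-family factors bind, among the 6 member genes matched in the RefSeq promoter table of GRCm38.p6. The 250 bases before its start, chr10:127063285-127063534 on the plus strand, hold 4 E-boxes, in capitals here. Their first bases lie 172, 118, 98 and 11 bases before the start.

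Cdk4: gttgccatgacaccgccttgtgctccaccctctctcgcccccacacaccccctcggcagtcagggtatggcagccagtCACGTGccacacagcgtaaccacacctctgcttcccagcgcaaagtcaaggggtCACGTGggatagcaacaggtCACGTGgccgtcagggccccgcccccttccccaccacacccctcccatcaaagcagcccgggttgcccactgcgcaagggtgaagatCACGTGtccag

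CACGTG reads the same on both strands, so each site counts once. Of 32851 promoter windows of this length, 1978 (6.02%) held at least 1 E-box and 7 (0.0213%) held 4 or more. Cdk6 held 1. A match of letters is a description of the window and not evidence of binding. Of the genes for Myc proteins, Mycn fell by 1.09 (log2 ratio −1.09 ± 0.09, limma, adjusted p = 2.09e-07) and still passed with median centring at −0.53. Myc was at 0.00 with loess and did not pass (limma, adjusted p = 0.998), but passed as higher with median centring at 0.59 (adjusted p = 0.0185). Mycl1 passed as higher with both, at 0.14 and 0.59. Further motifs were searched in the same windows on both strands. No member window held the E2F-type letters TTTCGCGC or TTTGGCGC, which 215 windows (0.654%) held. The GC box GGGCGG was found 5 times for Cdk2 and 4 times each for Ccne1 and E2f1, where 4.09% of windows held 4 or more. The E2f1 and Cdk6 windows and the second Ccnd3 window lie inside the annotated genes and may not be the main promoters.

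Cdk6 (chr5:3341004-3531008), the second kinase of the D cyclins, was read by 3 probes that disagreed. The probe A_51_P489779, designed on the cDNA clone AK030810, read 10.11, 10.01, 10.18 and 10.21 in LIF and 11.31, 11.19, 11.08 and 11.20 in butyrate. It rose, with a ratio of 1.07 ± 0.14, 2.10-fold (limma, adjusted p = 7.08e-07) and 1.66 with median centring. The probe A_52_P417489, designed on the RefSeq mRNA NM_009873, read 10.13, 10.06, 10.09 and 10.01 in LIF and 9.11, 9.13, 9.17 and 9.09 in butyrate.

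This second probe fell, with a ratio of −0.95 ± 0.05, 1.93-fold lower (limma, adjusted p = 1.75e-07), and it stayed lower with median centring (−0.36, adjusted p = 0.0370). The last probe, A_51_P388310, names the same mRNA and is dim, at 6.75 to 6.94 in LIF and 6.82 to 6.89 in butyrate. Its groups overlapped, and its ratio of 0.03 ± 0.06 did not pass (limma, adjusted p = 0.534).

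The AK030810 probe exceeded the brighter NM_009873 probe by 2.02 ± 0.18 in log2 ratio, by 1.83 to 2.21 over the 4 arrays, and by 2.03 with median centring. No normalization tried brought the signs together. The clone was not matched in the RefSeq table, so which Cdk6 transcript it reads, or whether it reads one, was not tested here, and no single direction is given for Cdk6. By the rule of the brightest tested probe the clone's probe stands for Cdk6 in counts over genes. The genes with ratios most like it over the 4 arrays, out of 9044 candidates, were Rnd3 (Euclidean distance 0.11), Spag9 (0.12) and Daam1 (0.13). Their mean ratios were 1.05, 1.04 and 1.07.

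**Figure D2:**
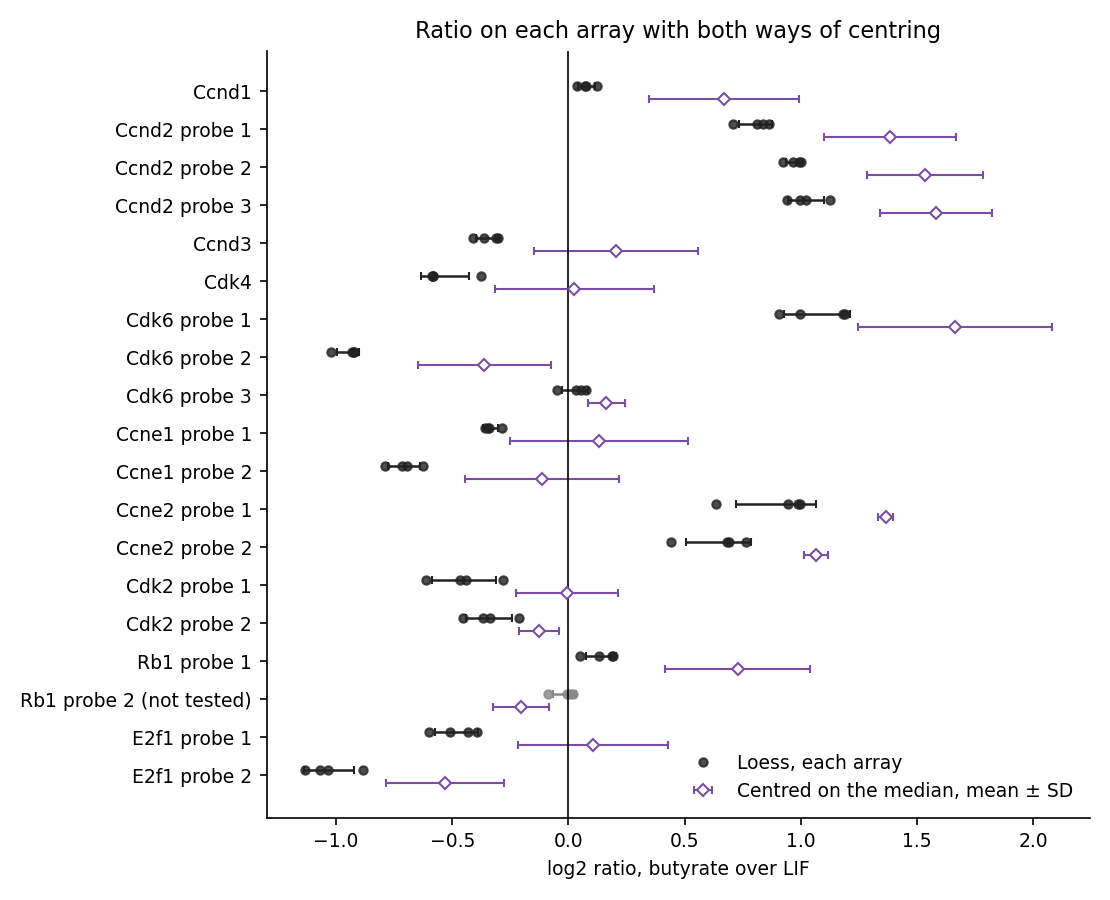
Log2 ratio of butyrate over LIF (horizontal axis) for the 19 member probes: filled circles are the 4 arrays with loess, with a bar of 1 SD about their mean, and open diamonds the mean ± SD over 4 arrays centred on the median. Diamonds lie to the right of the circles for 18 probes, past 0 for Ccnd3, Cdk4, the brighter Ccne1 probe and the brighter E2f1 probe; the 3 Cdk6 probes lie at 1.07, −0.95 and 0.03 with loess.

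The 2 E cyclins moved in opposite directions with loess: Ccne2 rose and Ccne1 fell. The Ccne2 (chr4:11190433-11204779) probe A_52_P58560, on NM_009830, read 7.50, 7.86, 7.61 and 7.47 in LIF and 8.49, 8.49, 8.55 and 8.47 in butyrate. The butyrate samples agreed closely and all lay above the LIF samples, of which replicate 2 was highest. The ratio was 0.89 ± 0.17, 1.86-fold higher (limma, adjusted p = 3.96e-06), and 1.37 with median centring.

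The other Ccne2 probe, A_52_P58558 on NM_001037134, gave 0.64 ± 0.14 (limma, adjusted p = 1.23e-05) and 1.07 with median centring. LIF replicate 2 was again the highest LIF sample, at 7.62 against 7.30 to 7.48 in the others. Both probes thus had their smallest ratio on array 2, at 0.64 and 0.44.

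Ccne1 (chr7:38097984-38107490) had a very bright probe, A_51_P408946, at 15.03, 14.98, 14.98 and 14.95 in LIF and 14.67, 14.64, 14.70 and 14.60 in butyrate, and it was saturated on no array. Its ratio was −0.33 ± 0.03, 1.26-fold lower (limma, adjusted p = 4.76e-05), and 0.13 ± 0.38 with median centring, where it did not pass. The dimmer probe A_52_P796682 read 11.35, 11.25, 11.23 and 11.12 in LIF and 10.56, 10.54, 10.54 and 10.49 in butyrate. This gave −0.71 ± 0.07, 1.63-fold lower (limma, adjusted p = 1.18e-06), and −0.11 with median centring (adjusted p = 0.491). The groups of both Ccne1 probes were apart with loess, and neither probe passed with median centring.

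Compared within arrays, the ratio of Ccne2 exceeded that of Ccne1 by 1.23 ± 0.17, by 0.98 to 1.35 over the 4 arrays. The mean difference was 1.23 with median centring as well. With loess the difference had the same sign on all 4 arrays, which gives the smallest p the exact sign-flip test allows (0.125).

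Cdk2 (chr10:128697938-128705051), the kinase of the E cyclins, was lower in butyrate on both probes with loess. The probe A_52_P651298, on NM_183417, read 8.24, 8.01, 8.23 and 8.21 in LIF and 7.63, 7.73, 7.79 and 7.74 in butyrate. The groups did not overlap, and the ratio was −0.45 ± 0.14, 1.37-fold lower (limma, adjusted p = 9.78e-05). The probe A_51_P266521, on NM_016756, gave −0.34 ± 0.10 (limma, adjusted p = 0.000187). With median centring the ratios were −0.01 and −0.13 and neither passed, whereas the scanner software's own log ratio gave −0.81 and −0.99. The accessions name different Cdk2 transcripts, and the ratios of the probes differed by −0.11 ± 0.11, with both signs among the arrays.

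Rb1 (chr14:73192858-73325951), which encodes the Rb protein that the G1 kinases inactivate, was slightly higher. Its tested probe read 9.52, 9.54, 9.56 and 9.62 in LIF and 9.71, 9.73, 9.69 and 9.67 in butyrate. The groups were barely apart (9.62 against 9.67), and the ratio of 0.14 ± 0.07 (1.10-fold) passed by limma with an adjusted p of 0.0122. With median centring it was 0.73 ± 0.31 (adjusted p = 0.00289), close to the median of 0.63 of probes as bright. Without replicate 1 it was 0.12 (adjusted p = 0.0516), and with the scanner software's log ratio 0.03 (adjusted p = 0.494). The untested Rb1 probe was well above background in 1 LIF sample and no butyrate sample, and its groups overlapped.

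E2f1 (chr2:154559400-154569892), the transcription factor released when Rb is phosphorylated, fell on both probes with loess, by different amounts. The dimmer probe, A_51_P120636, read 8.90, 8.75, 8.86 and 8.84 in LIF and 7.76, 7.87, 7.82 and 7.77 in butyrate. All butyrate samples were far below the LIF samples. The ratio was −1.03 ± 0.11, 2.05-fold lower (limma, adjusted p = 3.82e-07), and still passed with median centring at −0.53 (adjusted p = 0.00613).

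The brighter E2f1 probe, A_52_P587611, read 10.06, 9.92, 9.91 and 10.04 in LIF and 9.55, 9.49, 9.52 and 9.44 in butyrate. These groups were also apart, with a ratio of −0.48 ± 0.09, 1.40-fold lower (limma, adjusted p = 1.87e-05), but 0.11 with median centring (adjusted p = 0.510). The brighter probe's ratio was 0.55 ± 0.10 above that of the dimmer one and above it on each array, so the size of the fall in E2f1 depends on the probe. Both probes name the same mRNA.

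To separate the members from the shift that all probes share, each member probe was ranked among the tested probes within 0.5 log2 units of its own brightness (322 to 8423 probes). These ranks describe the members and carry no test. With loess 4 of 18 member probes lay above the 90th percentile, the brighter Ccne2 probe (92.3), a pair of Ccnd2 probes (92.5 and 93.4) and the AK030810 probe of Cdk6 (93.4). Below the 10th percentile lay 5, the dimmer E2f1 probe (2.31), the brighter NM_009873 probe of Cdk6 (3.28), both Ccne1 probes (5.77 and 9.91) and the NM_016756 probe of Cdk2 (7.34).

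Median centring left these places almost as they were: the E2f1 probe was at 2.39, the Cdk6 probe at 3.31, the Ccne1 probes at 5.81 and 9.91 and the Cdk4 probe at 10.8 after 11.1. The largest move among probes that passed was that of the NM_016756 probe of Cdk2, from 7.34 to 11.9. Ccnd1 stayed at 53.6 and Rb1 at 57.8 and 58.2, near the middle. Probes of like brightness shift nearly alike between the normalizations, so these ranks were bound to stay close and are no separate support. Among probes of like brightness Ccnd2 and Ccne2 were high and Ccne1, E2f1, Cdk4 and Cdk2 low. The sign of the smaller decreases depended on which level was taken as no change. Ccnd3, Cdk4 and the brighter Ccne1 and E2f1 probes turned positive, without passing, with median centring only. They passed as lower with loess, the scanner software's log ratio and the authors' value table.

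**Figure D3:**
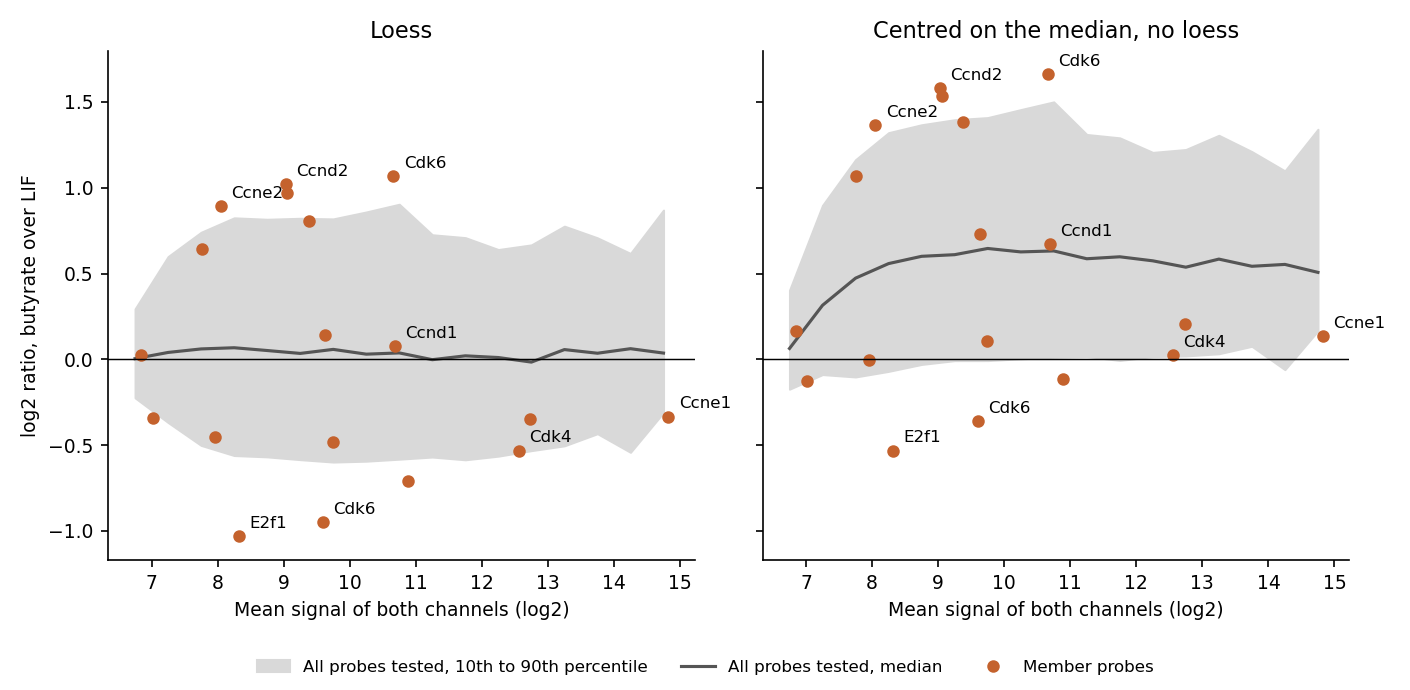
Log2 ratio of butyrate over LIF (vertical axis) against mean log2 signal of both channels (horizontal axis), with loess at left and median centring at right; orange points are the 18 tested member probes, the grey band spans the 10th to 90th percentile of all tested probes in bins of brightness and the line their median. The cloud and the members shift upward together at right, where the medians beside the members reach 0.63, and the order of the members within the band is nearly kept.

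The gene lists around the G1 members were counted on the brightest tested probe of each gene, for which 74.2% of 17312 genes passed, 41.3% higher and 32.9% lower, and 42.9% passed with both normalizations, 38.1% higher and 4.87% lower. On that footing 9 of the 10 member genes passed, 4 higher (Ccnd2, Cdk6, Ccne2 and Rb1) and 5 lower (Ccnd3, Cdk4, Ccne1, Cdk2 and E2f1). For Cdk6 the direction, and for E2f1 the call with median centring, rests on the choice of probe. The brighter NM_009873 probe of Cdk6 passed as lower with both normalizations (−0.95 and −0.36). So did the dimmer E2f1 probe (−1.03 and −0.53). The 4 counted as higher passed with both normalizations and none of the 5 counted as lower did. Median centring raises most ratios, so this contrast follows largely from that shift, as in the shares of all genes. The median ratio of the member genes was −0.13, against 0.03 for all genes, and 0.44 against 0.40 with median centring.

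The inhibitors of the G1 kinases had the highest median of the 5 pathway lists, 0.90 (1.48 with median centring). Of 7 tested, 4 rose and 2 fell, and 1 did not pass. Cdkn2b, which encodes p15, an inhibitor of Cdk4 and Cdk6, was up by 1.89 ± 0.09 (limma, adjusted p = 1.73e-08). Cdkn2a, which encodes p16 and p19Arf, was up by 1.35 ± 0.28.

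Cdkn1a and Cdkn1c, which encode the inhibitors p21 and p57, stood at 1.06 ± 0.12 and 0.90 ± 0.11. All 4 passed with both normalizations.

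Other pocket proteins, E2F factors and their DP partners split: of 13 tested, 6 rose and 4 fell, and 3 did not pass, with a median of −0.08 (0.51 with median centring). The repressive factor E2f7 (0.72 ± 0.08) and the activator E2f3 (0.50 ± 0.16) rose. So did Tfdp1, an E2F partner on chromosome 8 (0.43 ± 0.08), and E2f6 (0.43 ± 0.06), for which another probe passed in the opposite direction. E2f2 had the lowest ratio of the list, −0.91 ± 0.13, and with median centring it was −0.33 and did not pass (adjusted p = 0.102). Chromosome 8 had the highest median ratio of any chromosome, 0.25, and chromosomes 11 (0.18) and 19 (0.15) were next, while the chromosomes that hold members had medians between −0.07 and 0.03. Whether copy number had a part in this was not tested.

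Among 28 E2F target genes of DNA replication 19 fell and 5 rose with loess, and 4 did not pass, with a median of −0.19. With median centring the median was 0.37, against 0.40 for all genes, and the 13 of 28 that passed were all higher. Of these, 4 had passed as lower with loess: Mcm2 (−0.12, then 0.40), Orc1 (−0.19, then 0.40), Rrm2 (−0.13, then 0.43) and Chek1 (−0.10, then 0.50). None passed as lower with both normalizations. Gins1, a subunit of the replicative helicase, had the lowest ratio (−0.80 ± 0.04, and −0.22 with median centring). The 5 that rose under both normalizations included the helicase loader Cdc6 (0.58 ± 0.05), the sliding clamp Pcna (0.39 ± 0.06), and the helicase subunits Mcm5 (0.33 ± 0.03) and Mcm4 (0.15 ± 0.08). Cdc6 and Mcm5 lie on chromosomes 11 and 8.

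Genes for the activation and turnover of the G1 kinases gave 5 higher and 11 lower of 19 tested, with 3 not passing and a median of −0.18 (0.31 with median centring, where 10 passed as higher, 2 of which had passed as lower, and 1 as lower). The cullins Cul1 (0.62 ± 0.06), Cul4a (0.55 ± 0.02) and Cul3 (0.48 ± 0.02), scaffolds of ubiquitin ligases that mark cyclins for degradation, rose. Cul4a lies on chromosome 8, the chromosome with the highest median ratio. Ccna1, a germ cell A cyclin, was the gene that fell with both normalizations (−0.36 ± 0.09).

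Of 17 genes that feed mitogen and Wnt signals to the D cyclins, 11 rose and 4 fell, and 2 did not pass, with a median of 0.38 (0.89 with median centring). The transcription factors Ets1 (1.63 ± 0.17), Jun (1.29 ± 0.19) and Fos (1.02 ± 0.20) rose with both normalizations. Jun and Fos are immediate early genes of growth factor signalling. Mycn, given above, was the list's only gene lower with both.

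**Figure D4:**
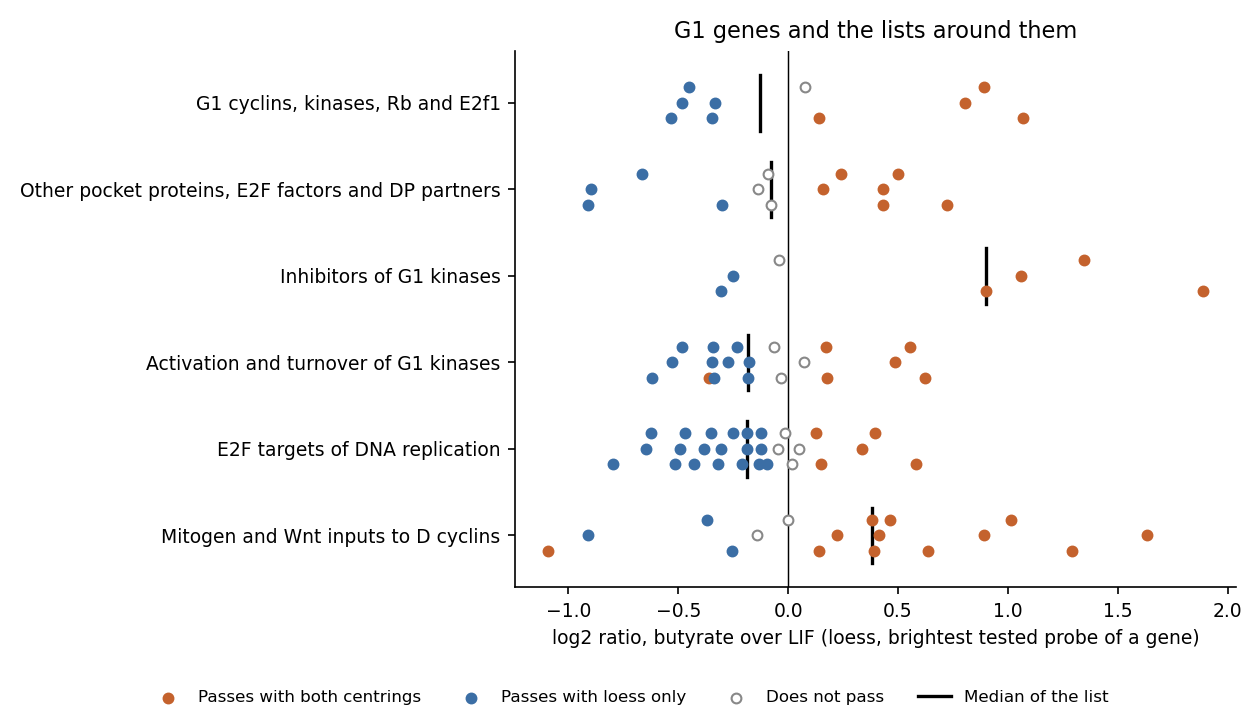
Log2 ratio of butyrate over LIF (horizontal axis, loess, brightest tested probe of a gene, mean of 4 arrays) for the G1 members and 5 lists around them; orange points passed in one direction with both normalizations, blue points with loess alone, open points did not pass, and black bars are list medians. The inhibitors' bar is at 0.90 and the members' at −0.13, with 3 members at 0.8 or above and 5 between −0.53 and −0.33.

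Markers of cell identity moved with the treatment, and their part in the members' values was not tested. Of 9 embryonic stem cell markers 7 were lower and 1 higher with loess, Pou5f1 (−1.57 ± 0.22) most. By median centring 3 were lower (Pou5f1, Sox2 and Utf1) and 3 higher (Nanog, Sall4 and Lin28a), with Lin28a lower by loess. Dppa5a was saturated on every array in both groups. The summed level of the 8 other markers (linear normalized signal) ran from 74651 to 79331 in LIF and from 56288 to 63398 in butyrate. This sum and those below are of signal after loess. Zfp42, the brightest of the 8, was at −0.19 with loess and at 0.27 with median centring, where it did not pass. The median ratio of the 9 markers was −0.61 with loess and −0.13 with median centring. Of 8 trophoblast markers tested all passed as higher, with both normalizations. Krt8 and Krt18, saturated on every butyrate array, make up most of their sum in butyrate, so the sum over the 6 others is given. It ran from 3544 to 4121 in LIF and from 24906 to 26919 in butyrate. Krt19 (mean log2 signal 11.21 in LIF and 14.13 in butyrate) makes up most of that sum in both groups. Of 7 fibroblast markers 6 were higher and 1 lower (Thy1, which passed as higher with median centring), with sums from 1696 to 1983 and from 9745 to 10154, led by Col1a1 (4.15 ± 0.16).

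The defining markers Lum, Tpbpa, Ttr and Ptprc were too dim to test, and Dcn, Elf5 and Afp were not well above background in any LIF sample. Dcn, Elf5 and Afp entered the test through the butyrate samples alone, so counting them as higher is no support for a rise. For endoderm the sums ran from 1193 to 1313 in LIF and from 1723 to 1880 in butyrate (6 of 7 tested higher), for neural markers from 4234 to 4642 and from 6301 to 6802 (2 of 4 higher, 1 lower), and for blood from 794 to 966 and from 1247 to 1499 (3 of 5 higher, 1 lower). The fibroblast, endoderm, neural and blood counts are with loess. With both normalizations 5 fibroblast, 5 endoderm, 2 neural and 2 blood markers passed as higher. Dcn and Afp passed as higher with loess alone. Pou5f1, Sox2 and Nanog stayed well above background in all 8 samples.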

How the data were processed

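Probe intensities were read from the 4 distinct scans among 8 deposited scanner files (each scan serves the samples of both dyes). Agilent Feature Extraction 9.1 read the scans, per the submitters' processing notes. The deposited intensity columns are a spot mean, a background median and a processed signal. Per the file headers, the deposited log10 ratio of Cy5 over Cy3 is background-subtracted and dye-normalized. The authors' value table holds log2 values whose lowest correlation with the log2 processed signal of their own channel was 0.9996 and which shared a median of 6.487 (sorted values within 0.002), so its columns are quantile-normalized. No source used here gives the tool.

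Background was corrected with limma 3.58.1 in R 4.3.3 (normexp, offset 50, which understates folds of dim probes), followed by loess with control spots at weight 0. Of 45018 spots per array 43379 were not controls, 14 outlier-flagged spots were left out, and replicate spots were averaged per probe. Probes well above background on at least 3 of 4 arrays in either channel, with at least 3 ratios, were tested with lmFit and eBayes on the 4 ratios. Per array 57.9% to 61.2% of probes in LIF and 62.7% to 63.9% in butyrate were well above background, and the number of arrays limits the precision. Levels per sample are channel values after loess and Aquantile. Accessions of 22951 probes matched the GRCm38.p6 RefSeq table. Simulated data were used to test these steps. Of 25 probes raised 4-fold 25 were recovered, at a median log2 ratio of 1.62. Of 25 lowered 4-fold 22 were recovered, at −0.72. At 2-fold it was 24 raised, at 0.90, and 23 lowered, at −0.84. Of 25461 unchanged probes 11 were called. The steps thus understated the size of simulated falls. Figures used matplotlib 3.10.9 in Python 3.11.15.

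The ratio within an array is the replicate block. Samples of 1 number deviated together from the means of their groups, with correlations of 0.25, 0.15, 0.30 and 0.21, against −0.22 to 0.09 for other numbers, and the pairing comes from the shared array. All arrays shared 1 slide, so no batch could be tested. The members and lists were chosen with earlier results of these data known. Named are all member probes, up to 4 genes of each list with the largest ratio that passed the same way with both normalizations, and the 3 genes most like the member with the largest ratio. E2f2, Gins1, Myc, Mycl1, Mcm2, Orc1, Rrm2, Chek1 and the markers beyond this rule were added with their values in view. The alternatives comprised other background corrections, normalizations, filters, variance models, pairings and probe choices, the authors' value table, and leaving out each replicate.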

Additional observations from a re-analysis of the deposited data

Results flagged for a closer look

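In 6 of 60 probes examined, 1 array of the 4 lay far from the rest by Dixon's criterion (the gap to the nearest array against the whole range), where chance gives about 1 in 20. For Cdk4 array 4 was at −0.37 and the other arrays between −0.59 and −0.58. The brighter NM_009873 probe of Cdk6 was at −1.02 on array 1 and between −0.93 and −0.92 on the others. The NM_009830 probe of Ccne2 was at 0.64 on array 2 against 0.946 to 0.998. Mcm4 was at 0.027 on array 4 against 0.18 to 0.21. Sox2 was at −1.11 on array 1 against −1.28 on each of the others. Postn was at 2.51 on array 2 against 3.43 to 3.48. The direction on the array that stood apart was that of the other arrays for all 6 probes.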

How the results depend on the processing

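With each array centred on its median, 10 member probes passed instead of 16 and 2 were lower instead of 9. In all 1242 probes were lower instead of 8343, 3697 passed at 2-fold or more instead of 1464, and 13 E2F targets passed, all higher, instead of 24, of which 19 were lower. Mcm2, Orc1, Rrm2 and Chek1 passed in opposite directions. Under it Ccnd3 (0.20), the brighter Ccne1 probe (0.13), Cdk4 (0.025) and the brighter E2f1 probe (0.11) turned positive without passing, both Cdk2 probes and the dimmer Ccne1 probe no longer passed, and Ccnd1 passed (0.67). This construction leaves out loess, and the median of all tested probes moved with it from 0.03 to 0.37.

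At 2-fold 4377 probes passed with the scanner software's log ratio and 4353 in the authors' value table, both built on the processed signal. In both the Rb1 probe no longer passed (0.03 and 0.03), and the Cdk2 probes lay at −0.81 and −0.99, and at −0.80 and −1.01. In each, 9 member probes passed as lower, as with loess. Among them Cdk4 lay at −0.57 and −0.57 and Ccnd3 at −0.39 and −0.39. The brighter Ccne1 probe lay at −0.37 and −0.47, and the brighter E2f1 probe at −0.64 and −0.65. With the brightest probe of each gene alone fewer probes enter by construction, and 9 members passed, 4 higher and 5 lower. Cdk6 counts as higher there through the clone's probe. Without 1 replicate, 15 to 16 member probes passed, and the change was Rb1 without replicate 1. With no replicate block 16 member probes passed, 7 higher and 9 lower, and with a random replicate block 16, so the pairing changed no member's call. The background settings, Aquantile, the filters, the saturated spots and the variance model changed no member's call. Dim probes limit the folds: the offset draws their ratios toward 0.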
